A study of Cucumis sativus and Manihot esculenta and Brachypodium distachyon with 34 samples.

Results

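A list of 6 cellulose synthase (CESA) genes of the grass *Brachypodium distachyon* was examined in leaf RNA, and further *CESA* genes were left out. The listed genes are 6 of the 31694 genes in the expression table of this species, and they were listed by gene identifier. No level enters that list, but it was made with earlier results of these data known. The primary wall set held *CESA1* (Bradi2g34240), *CESA3* (Bradi1g54250) and *CESA6* (Bradi1g53207), and the secondary wall set held *CESA4* (Bradi3g28350), *CESA7* (Bradi4g30540) and *CESA8* (Bradi2g49912). All 6 identifiers were found, each in 1 row. The table lists identifiers without gene names, so the names and the wall sets were given with the list of genes and could not be checked against the table. The series compares leaf DNA methylation between flowering plants, and RNA of some species was sequenced. The only RNA library of *B. distachyon* here came from leaf of the inbred line Bd21, with no treatment in the labels. The labels give neither the age of the plants, nor the part of the leaf, nor how many plants were taken. With 1 library there is no replicate error, so every value below is a description, with no test. No annotation of *B. distachyon* was used here, so the labelled tissue was not checked against leaf markers, and the sequences of the 6 genes are not shown.

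Cellulose, the main load-bearing polymer of plant cell walls, is made at the plasma membrane by complexes of CESA proteins, each of which is a glycosyltransferase that extends a glucan chain from UDP-glucose. In *Arabidopsis thaliana*, CESA1, CESA3 and a CESA6-type protein form the complex of the primary wall, which is laid down while cells grow. CESA4, CESA7 and CESA8 form that of the secondary wall, which thickens the walls of xylem vessels and fibres after growth has stopped. In both complexes all 3 kinds of subunit are needed for normal cellulose synthesis. In a grass leaf, cells with thick secondary walls lie mainly in the veins and in the fibres beside them.

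RNA of all 6 *CESA* genes was abundant in the leaf, from 43.4 to 160.9 FPKM. Levels are in FPKM, fragments per kilobase of transcript per 1000000 mapped fragments, which is a measure per length and lets genes be set side by side. Of the primary wall genes, *CESA1* had the highest level, at 160.9 FPKM, and ranked 501 of 31694 genes when all genes were ordered from the highest FPKM down. *CESA3*, the obligate partner of CESA1 in the *A. thaliana* complex, had 139.4 FPKM and rank 590. *CESA6*, whose counterpart in *A. thaliana* belongs to a group of partly interchangeable subunits, had 43.4 FPKM and rank 2107. The 3 genes spanned a wide range, with *CESA1* 3.71-fold above *CESA6*.

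The secondary wall genes lay between *CESA3* and *CESA6*. *CESA7* had 100.4 FPKM and rank 902. *CESA8* had 98.5 FPKM and rank 920. *CESA4* had 73.3 FPKM and rank 1246. The highest of them was 1.37-fold above the lowest, against 3.71-fold in the primary wall set, and on the log2(FPKM + 1) scale the SD over the 3 genes was 0.25 in the secondary and 1.02 in the primary wall set. Most of the width of the primary wall set came from *CESA6*, since *CESA1* and *CESA3* differed by 1.15-fold. The 1.37-fold range of the secondary wall set came mostly from *CESA4*, 1.34-fold below *CESA8*, while *CESA7* and *CESA8* differed by 1.02-fold. Without the lowest gene of each set, the primary wall genes still differed more, 1.15-fold against 1.02-fold. The SDs describe differences between genes and are not an error of measurement.

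**Figure D1:**
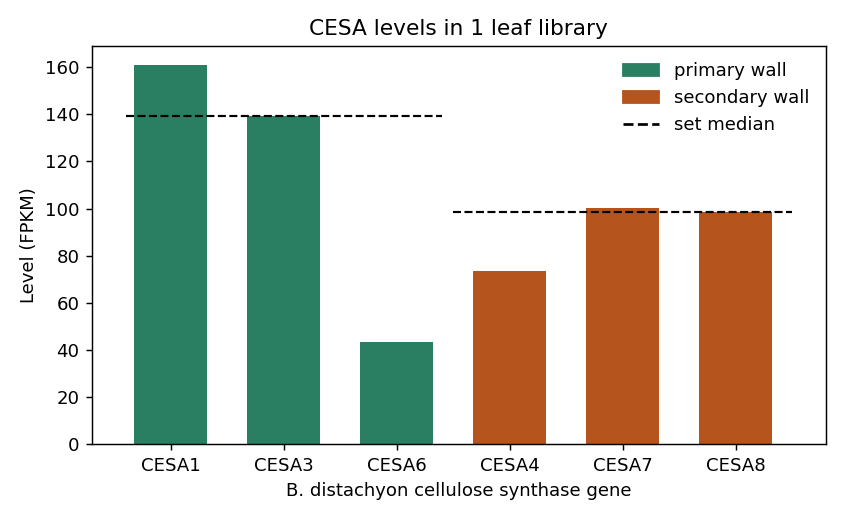
Level of each cellulose synthase gene in the leaf library, in FPKM, with bars in green for the primary and in brown for the secondary wall set. Dashed lines mark the set medians, 139.4 and 98.5 FPKM. The secondary wall genes lie between 73.3 and 100.4 FPKM, with 2 of the primary wall genes above and *CESA6* below all of them.

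All 6 genes were at 1 FPKM or more, as were 51.8% of the genes in the table. All 6 were also at 5 and at 10 FPKM or more, where the shares over all genes were 33.3% and 23.1%. *CESA1* and *CESA3* were within the highest 1.58% and 1.86% of all genes listed. *CESA7*, *CESA8* and *CESA4* were within the highest 2.85%, 2.90% and 3.93%, and *CESA6* within the highest 6.65%. The ranks place 5 of the 6 genes above the 95th percentile of the table, which was 57.0 FPKM, and *CESA6* between it and the 90th percentile, 29.0 FPKM. None of the 6 genes reached the 99th percentile, 238.7 FPKM.

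The table as a whole had a median of 1.23 FPKM, and 9018 genes, or 28.5%, were listed at 0. The rank of a gene therefore depends on which genes are counted with it. Among the 16415 genes at 1 FPKM or more, *CESA1* was within the highest 3.05% and *CESA6* within the highest 12.8%, with the secondary wall genes between them, from 5.49% for *CESA7* to 7.59% for *CESA4*. Against the median of those genes, 8.34 FPKM, the level of *CESA1* was 19.3-fold higher, that of *CESA3* 16.7-fold, that of *CESA7* 12.03-fold, that of *CESA8* 11.8-fold, that of *CESA4* 8.79-fold and that of *CESA6* 5.20-fold. Each of the 6 was well above a typical expressed gene of this leaf, the lowest one included.

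**Figure D2:**
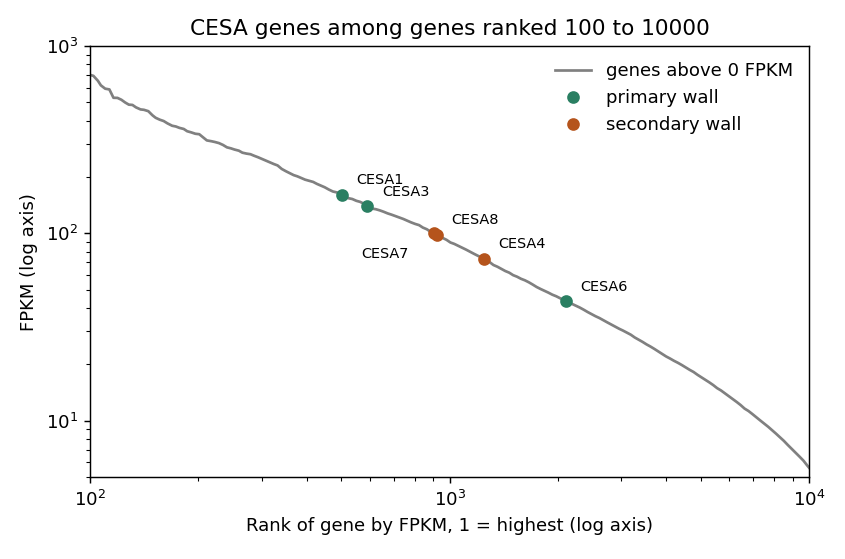
FPKM of the genes ranked 100 to 10000 (grey line) against their rank, with both axes on a log scale and rank 1 the highest. Points mark the primary (green) and the secondary wall genes (brown), which fall between rank 501 (*CESA1*) and rank 2107 (*CESA6*).

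In the order of levels, *CESA1* was 1.15-fold above *CESA3*, with 88 genes of the table between them. *CESA3* was 1.39-fold above *CESA7*, with 311 genes between. *CESA7* and *CESA8* were the closest neighbours, at a ratio of 1.02 and with 17 genes between them. *CESA8* was 1.34-fold above *CESA4*. The largest step in the order was that from *CESA4* down to *CESA6*, 1.69-fold and 860 genes. Without replicates it cannot be said which of these steps exceed the spread between libraries. The table is dense at these levels. Within 1.5-fold of its own FPKM, on either side, *CESA1* had 529 other genes, *CESA7* had 799 and *CESA6* had 1793. Among these, the rank of *CESA6* was thus the least sharply set when counted in genes, and not in proportion to the rank. A level 1.5-fold lower would move *CESA1* from rank 501 to 843 and *CESA6* from rank 2107 to 3178.

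Set against each other, the primary wall genes had the higher median, 139.4 against 98.5 FPKM, a ratio of 1.41 and a difference of 0.50 on the log2(FPKM + 1) scale. Of the 9 pairs of a primary with a secondary wall gene, the primary wall gene was higher in 6, all with *CESA1* or *CESA3*, and lower in 3, all with *CESA6*. The ratio of the pair ran from 0.432 (*CESA6* to *CESA7*) to 2.196 (*CESA1* to *CESA4*). The sets overlapped, with all secondary wall genes inside the range of the primary ones.

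The size of the difference depended on how the sets were summarised. Summed over the 3 genes, the level was 343.7 FPKM in the primary and 272.2 FPKM in the secondary wall set, a ratio of 1.26. Further *CESA* genes were left out, so these sums need not cover all genes of either wall type. The geometric means were 99.1 and 89.8 FPKM, a ratio of 1.10. With *CESA1* left out, the primary wall median was 91.4 FPKM and the ratio fell below 1, to 0.927. With *CESA3* left out it was 1.04, and with *CESA6* left out 1.52. With a primary wall gene left out, the median is the midpoint of those that remain. The low *CESA6* therefore weighs more without *CESA1* or *CESA3*. The primary wall median of all 3 genes is the level of *CESA3* itself, so the fall without *CESA1* does not rest on *CESA1* alone. A lower level of a gene in leaf RNA can come from fewer cells that use it or from less RNA in each cell, and these cannot be told apart here.

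**Figure D3:**
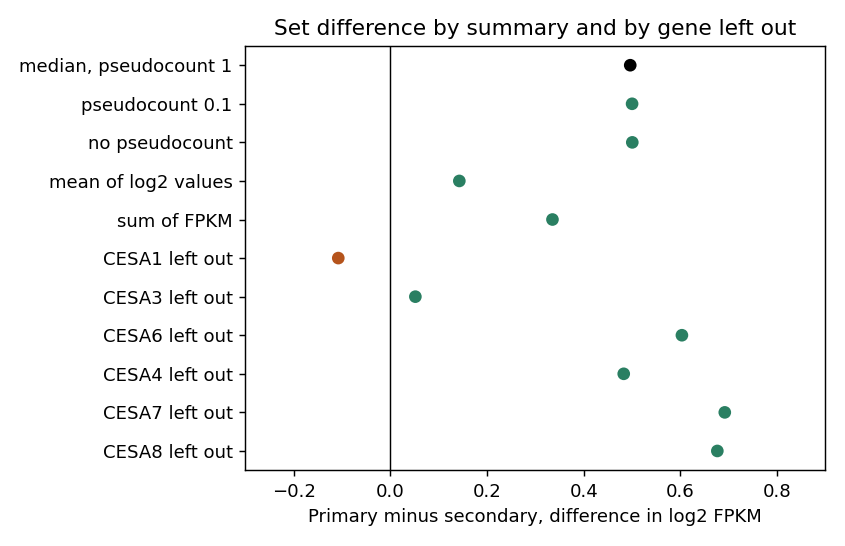
Difference between the primary and the secondary wall set on the log2 scale, as reported (black) and for each other summary or gene left out. Points right of the line at 0 mean a higher primary wall set. The point with *CESA1* left out is the only one to the left, at -0.11, and the others lie between 0.05 and 0.69.

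The 6 genes together held 0.0909% of the summed FPKM of the table, 0.0507% in the primary and 0.0402% in the secondary wall set. Rescaled to transcripts per 1000000 (TPM), so that all genes sum to that number, *CESA1* was at 237.5, *CESA3* at 205.6, *CESA7* at 148.1, *CESA8* at 145.4, *CESA4* at 108.1 and *CESA6* at 64.0 TPM. The rescaling changes neither ranks nor ratios.

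The identifiers place the genes on 4 of the 5 chromosomes: *CESA3* and *CESA6* on chromosome 1, *CESA1* and *CESA8* on chromosome 2, *CESA4* on chromosome 3 and *CESA7* on chromosome 4. Identifiers are numbered along a chromosome. *CESA6* and *CESA3* have 121 listed genes between them, and *CESA1* and *CESA8* have 1834, so that no pair of the 6 genes is adjacent. Counted among the genes of their own chromosome only, the 6 genes were placed from the highest 1.44% of chromosome 2 for *CESA1* to the highest 7.50% of chromosome 1 for *CESA6*.

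The genes that flank the *CESA* genes, 5 on either side of each, were set beside the whole table. Of these 60 genes, 28 (46.7%) were at 1 FPKM or more, near the 51.8% of the whole table. Their median was 0.768 FPKM, against 1.23 FPKM over all genes, and 18 were listed at 0, as were 28.5% of all genes. *CESA3* had the lowest surroundings, with 6 of its 10 flanking genes listed at 0, its neighbour on one side, Bradi1g54240, at 22.8 FPKM, and none above 25.5 FPKM. *CESA7* stood 2.97-fold above the highest of its flanking genes, *CESA4* 2.11-fold and *CESA6* 1.44-fold. *CESA1* and *CESA8* each had 1 flanking gene above them. Next to *CESA1* lies Bradi2g34250, at 192.6 FPKM, and 4 places from *CESA8* lies Bradi2g49960, at 154.5 FPKM. Being the highest of its 11 genes, as 4 of the 6 were, was seen for 8.81% of all genes, but for 68.6% of the 2104 genes with full flanks that were at or above the level of *CESA6*. With 4 of 6, the *CESA* genes were near that second share.

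**Figure D4:**
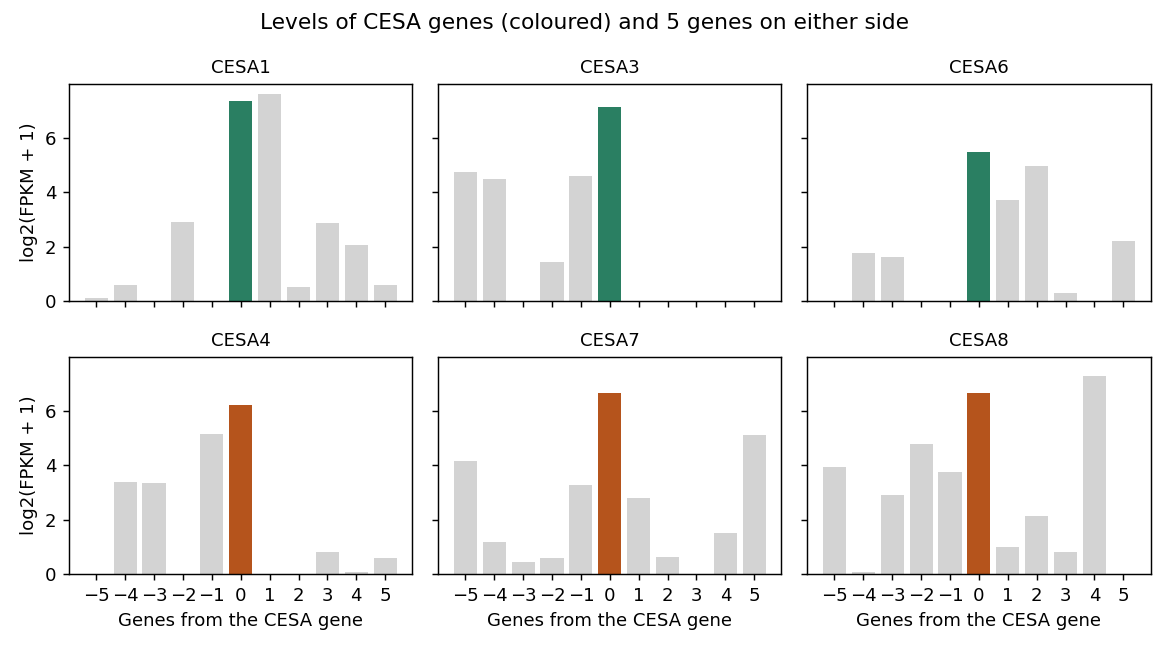
Level on the log2(FPKM + 1) scale of each cellulose synthase gene (coloured bar at 0, green for primary and brown for secondary wall) and of the 5 genes listed on either side (grey), by order of identifiers. The coloured bar is the highest of the panel for *CESA3*, *CESA6*, *CESA4* and *CESA7*, and 1 grey bar is higher beside *CESA1* and *CESA8*.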

How the data were processed

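Leaf RNA of *B. distachyon* Bd21 was sequenced by the authors in 1 library made with a stranded mRNA kit. The submitters' processing notes name Trimmomatic 0.32, TopHat2 2.0.13 and Cufflinks 2.2.1. The authors deposited 1 FPKM value per gene identifier, computed with a reference annotation. The paper lists the reads sequenced and the share mapped for its *B. distachyon* RNA library. The deposited FPKM values hold no fragment counts, confidence bounds or gene lengths. The fragments behind each value were therefore not counted, and no interval is given. *CESA* genes resemble each other, and how reads that fit several of them were divided is not given in the sources used here, so levels of close copies are uncertain. Since Cufflinks can write 0 where no estimate was made, such genes are described as listed at 0. Identifiers carry a number after a point, as transcript names can, and it was removed before matching. That number was 1 for all 6 genes and for 83.8% of all rows. Whether a value covers 1 transcript or the whole gene cannot be told from this number. The FPKM values of a gene were never spread over several rows.

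From the table, ranks, medians and ratios were obtained in pandas 2.3.3 and NumPy 2.4.6 under Python 3.11.15, and Matplotlib 3.10.9 drew the plots. A pseudocount of 1 FPKM was added before log2. Ties share the better rank. The rank calculation was run on the shuffled FPKM values, and the set difference on made-up values scaled by known factors. Both returned the planted values, which checks the code only and not the results. The 6 genes, the lists and the summaries were chosen with earlier results of these data known. Genes named are the 6 members. The neighbours Bradi1g54240, Bradi2g34250 and Bradi2g49960 were named after their values were seen, and the flanking genes were added as a description at that stage. Lists of other wall genes, of leaf markers and of protein and promoter features were planned by product name, and they were not analysed here, since no annotation of this species was used. Further *CESA* genes and the remaining species were left out.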

Additional observations from a re-analysis of the deposited data

How the results depend on the processing

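The FPKM table gives 1 library, so replicate error sets a limit on every value that cannot be measured here. The fragments behind each value were not counted either. No paired analysis was possible because the result comes from 1 library and no test. All 6 genes passed thresholds of 1, 5 and 10 FPKM, and no gene had several rows, so summing rows or taking the highest gave the same values. Ranked among genes above 0 FPKM only, *CESA1*, *CESA3*, *CESA6*, *CESA4*, *CESA7* and *CESA8* were within the highest 2.21%, 2.602%, 9.29%, 5.49%, 3.98% and 4.06%. Among genes at 1 FPKM or more these shares were 3.05%, 3.59%, 12.8%, 7.59%, 5.49% and 5.60%, since fewer genes were counted. Among genes of the same chromosome, chosen after seeing the data, they were 1.44%, 2.23%, 7.50%, 4.65%, 2.38% and 2.94%. The order of the 6 genes by FPKM could not change in these, since only the genes counted beside them differ. The log2 difference between the wall sets, 0.50 as reported, was 0.50 with a pseudocount of 0.1 FPKM or none, 0.14 by the mean of log2 values and 0.34 by the sum of FPKM. It turned to -0.11 with *CESA1* left out. It was 0.052 with *CESA3* left out, 0.60 with *CESA6*, 0.48 with *CESA4*, 0.69 with *CESA7* and 0.68 with *CESA8* left out. The medians of the other gene lists were not run.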

Other observations

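In a look made after the data were seen, the identifiers of *CESA6* (Bradi1g53207) and *CESA8* (Bradi2g49912) did not end in 0, and those of the other 4 genes did. Over the genes on chromosomes, 38.8% have an identifier that does not end in 0. Their median level was 0.143 FPKM, with 32.4% of them at 1 FPKM or more, against 3.52 FPKM and 64.1% for genes whose identifier ends in 0. *CESA6* at 43.4 FPKM and *CESA8* at 98.5 FPKM were thus far above the median of genes numbered like them. The same held for the other 4 genes, at 73.3 to 160.9 FPKM against 3.52 FPKM.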
